A study of Mus musculus with 58 samples.

Results

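The hnRNPU-only sites are places on mouse chromatin where tagged hnRNPU had a peak in chromatin immunoprecipitation followed by sequencing (ChIP-seq) and none of 8 other peak lists had one. The peaks of 9 lists were merged into regions wherever they shared at least 1 bp, and a region was kept when hnRNPU alone had a peak in it. This gave 2083 of 67384 regions, each with 1 hnRNPU peak. They were 20.3% of the 10279 hnRNPU peaks (95% Wilson interval 19.5 to 21.1%), and the other 8196 hnRNPU peaks are called shared here. The sites were chosen by the presence or absence of peaks in these lists, so scores, widths and positions are descriptions and no p-value was computed across peaks.

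hnRNPU, also known as scaffold attachment factor A, is an abundant nuclear protein that binds both RNA and DNA. It is known for its place in the nuclear matrix, for keeping Xist RNA on the inactive X chromosome, and for roles in chromatin compaction and splicing. SAFB and SAFB2 are related scaffold attachment factors. PSPC1 is a paraspeckle protein, and CIRH1A, UTP3 and UTP6 act in ribosome biogenesis.

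All lists come from untreated mouse embryonic stem cells of strain 129/Ola, and the design text gives the chromatin binding of RNA-binding proteins as their purpose. The series holds 58 samples, and the 49 without a peak list were not analysed here. PSPC1 tagged at its own gene (AID-FB(KI)-PSPC1, from the CJ9 line) had 2 libraries. FB(OE) lines, made from BirA J1 cells, overexpressed hnRNPU, SAFB, SAFB2, CIRH1A, UTP3, UTP6 or PSPC1, with 1 library each. hnRNPU, SAFB and SAFB2 chromatin was fixed with 2 mM of the protein crosslinker DSP and then 1% formaldehyde, cut with DNase I and sonication, and purified with FLAG antibody and then streptavidin. The knock-in, CIRH1A, UTP3 and UTP6 chromatin was fixed with 3% formaldehyde and overexpressed PSPC1 with 1%, and these were purified with FLAG antibody alone. An overexpressed protein can occupy sites that it does not occupy at its normal level, and the 2 kinds of site cannot be told apart here. The labels do not say whether a line was 1 clone.

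The hnRNPU library has no replicate, so every interval on its peaks covers counting error only. The 9 lists held 6670 to 40217 peaks, and their read depth is unknown. An absent peak therefore means that no peak was listed, not that the protein was absent. Both knock-in lists reach down to a score of 30.0 and the other 7 to about 50. Whether the cells were embryonic stem cells could not be checked from peaks alone. No sequence or gene of a site is given, because sequence and annotation of mm9, the build of these peaks, were not used here.

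The sites were weak peaks of the hnRNPU list. Their median score, the authors' own value per peak with no stated unit, was 57.1 (95% interval 56.5 to 57.7), against 74.5 (73.6 to 75.3) for shared hnRNPU peaks and 69.3 over the whole list. A score of at least 60 was reached by 39.4% of the sites (37.3 to 41.5%) and by 73.9% of shared peaks (73.0 to 74.9%). At least 100 was reached by 95 sites, 4.56% of them, against 25.3% of shared peaks. The highest score was 469.83 among the sites and 3100 among shared peaks.

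The share of hnRNPU peaks that had no counterpart fell along the score. In the decile with the lowest scores, 50 to 52.3, it was 41.2% (38.3 to 44.3%). In the fifth decile it was 20.6% (18.3 to 23.2%), and in the decile with the highest scores, from 129.78 up, it was 3.79% (2.79 to 5.14%). It was lower in each decile than in the decile below. Of the 2083 sites, 1017 lay in the quartile of the list with the lowest scores and 118 in the quartile with the highest.

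The sites were also narrow. Their median width was 557 bp (550 to 568 bp), against 873 bp (862 to 885 bp) for shared peaks, and they made up 14.9% of the bases under hnRNPU peaks. Widths of at least 1000 bp were found in 13.0% of the sites (11.6 to 14.5%) and 39.6% of shared peaks (38.6 to 40.7%). A wider peak can overlap a peak of another list more easily, so the rule itself favours narrow sites. The gap was also present among peaks of like score. In the lowest decile the median width was 513 bp for sites and 634 bp for shared peaks. In the highest decile it was 550 bp and 1212 bp. Shared peaks were wider in each higher decile, while the sites reached 669.5 bp in the seventh decile and were narrower above it.

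**Figure D1:**
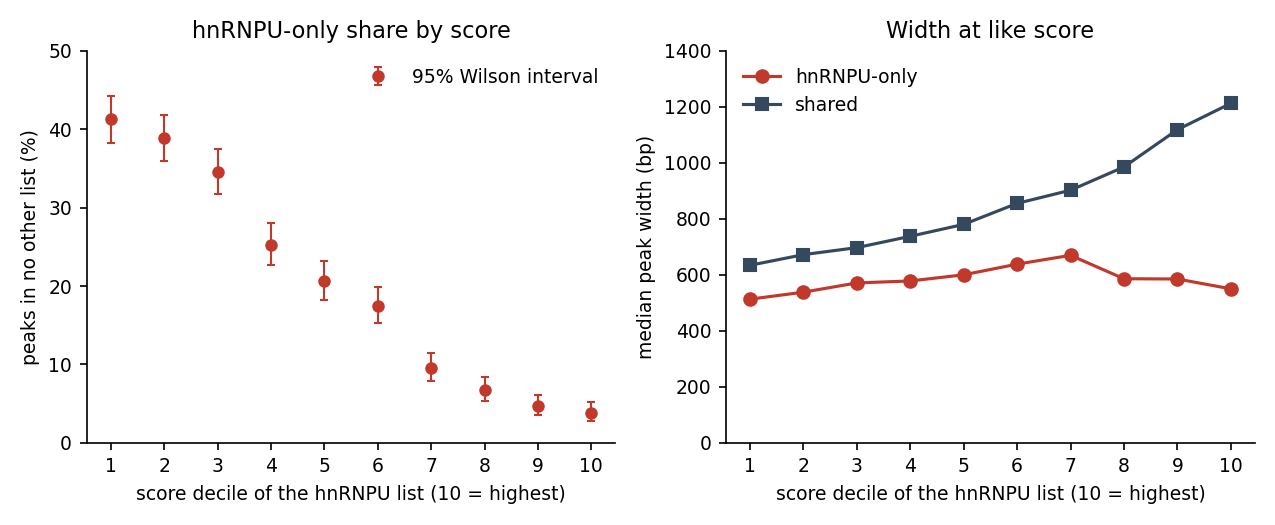
Left, share of hnRNPU peaks with no peak in the other 8 lists (%, y axis) by score decile of the hnRNPU list (x axis), with 95% Wilson intervals; it falls from 41.2 to 3.79%. Right, median width (bp, y axis) of hnRNPU-only and shared peaks in the same deciles; shared peaks reach 1212 bp in the highest decile, where hnRNPU-only peaks stay at 550 bp.

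Low scores and narrow peaks were not particular to the sites of hnRNPU. In all 9 lists, the peaks of 1 list alone had a lower median score and a smaller median width than the shared peaks of that list. The median site lay at percentile 26.0 of the hnRNPU scores. For peaks of 1 list alone elsewhere, this percentile was 44.3 in SAFB, 33.2 in SAFB2, 27.1 in UTP6, 26.6 in overexpressed PSPC1, 26.8 and 26.6 in the knock-in lists, 21.7 in CIRH1A and 15.2 in UTP3. The ratio of median widths, alone to shared, was 0.638 for hnRNPU and ran from 0.588 for overexpressed PSPC1 to 0.790 for SAFB2 in the other lists. The share of a list that no other list held was 34.8% for SAFB and 18.3% for SAFB2, which were made with the protocol of hnRNPU. It was 33.1% for UTP6, 27.7 and 27.0% for the knock-in lists, 10.2% for overexpressed PSPC1, 2.75% for UTP3 and 2.20% for CIRH1A. The PSPC1 classes are unlike the others. A peak of 1 PSPC1 list alone is also absent from the other lists of the same protein, while hnRNPU has no other list.

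The strongest sites stood below many shared peaks. The 10 sites with the highest scores had scores from 201.98 to 469.83 and ranked between 73 and 259 in the hnRNPU list. The first lay at chr1 from 3038956 to 3039160, with a score of 469.83 and a width of 205 bp, the smallest width of any hnRNPU peak. A UTP6 peak was 4502 bp away from it. The second, at chr19 from 8840511 to 8841386, scored 242.28 and was 3668 bp from a UTP6 peak.

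Chromosome 6 held the third and the sixth of these sites. The site at chr6 from 129046088 to 129046540 scored 234.39 and the site from 140062856 to 140063372 scored 233.9. Their nearest peaks of another list were 45593 and 46538 bp away, both in knock-in lists, the largest distances among the 10 sites. The next site of chromosome 6, from 86618710 to 86619461, scored 125.38. The 3 highest on chromosome 12 scored 157.13, 142.69 and 140.15 and lay from 10977817 to 10978829, from 23533668 to 23534645 and from 31263375 to 31264038.

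The other sites of this rank were at chr19 from 32018747 to 32018952, chr3 from 36752132 to 36752560, chr18 from 61934455 to 61934962, chr3 from 115609084 to 115610560, chr7 from 24799551 to 24799934 and chr4 from 99091357 to 99091891. The nearest list was SAFB for 3 of the 10 sites with the highest scores, and for 13.6% of all sites. The other sites among the 10 highest were nearest to UTP6 or knock-in peaks. Among the 100 sites with the highest scores, the median width was 564 bp, close to the 557 bp of all sites.

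The widest sites had scores below those of the strongest sites named above. The widest, at chr16 from 25520951 to 25526735, was 5785 bp wide with a score of 67.43. The next 4 all lay on chromosome 12, at 112785416 to 112790712, 29310201 to 29315109, 81729971 to 81734874 and 87864098 to 87868816. These were 4719 to 5297 bp wide, with scores between 52.63 and 79.81. Among the scores of the widest sites, only 52.63 was below the median of all sites, 57.09.

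The size of the class depends on the overlap that counts as shared. With a reciprocal overlap of 50%, 3574 hnRNPU peaks (34.8%) had no counterpart. At the 1 bp of the rule, the sites closest to another list were at chr14 from 60413628 to 60414211 and chr2 from 11027625 to 11028080, with 1 bp between the peaks, and chr7 from 27451766 to 27452341, with 5 bp. Their scores were 63.07, 50.39 and 57.39. The shared peaks with the smallest overlap were at chr19 from 6413693 to 6414631 with 1 bp, and at chr7 from 7029675 to 7030286 and chr9 from 5934506 to 5935026 with 4 bp each. Their scores were 51.35, 78.24 and 50.26. Within 100 bp of another list lay 37 sites, 1.78% of them, and 52 shared peaks overlapped by less than 100 bp at most.

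The median distance from a site to the nearest peak of any other list was 9528 bp (8750 to 10242 bp). Within 1000 bp of another list lay 11.7% of the sites (10.4 to 13.2%), within 10000 bp 51.2% (49.1 to 53.4%), and within 100000 bp 97.4% (96.6 to 98.0%). For the peaks of SAFB alone the median distance was 6703 bp (5938 to 7402 bp), for those of SAFB2 alone 5219 bp (4390 to 5788 bp) and for those of UTP6 alone 12001 bp (11661 to 12363 bp). Each distance was measured to all lists but the list's own, so they rest on different sets of peaks. The nearest list was UTP6 for 907 sites, 43.5% of them, and UTP6 is also the longest list. It was a knock-in list for 283 and 337 sites, SAFB for 283 and SAFB2 for 103. It was UTP3 for 72, overexpressed PSPC1 for 71 and CIRH1A for 27.

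Sharing of the other hnRNPU peaks was mostly with several lists. A region with exactly 1 other list held 797 hnRNPU peaks, 7.75%, and 3 to 6 other lists were found for 12.6 to 16.7% each. All 8 other lists were present for 125 peaks, 1.22%. The sites, with 0 other lists, were therefore the largest of these classes. Median score and width were 63.1 and 685 bp with 1 other list, and 73.2 and 871 bp with 4. Of the 797 peaks with a single partner, 393 (49.3%) had UTP6 as that partner, 117 overexpressed PSPC1, 70 SAFB and 37 SAFB2. Over all hnRNPU peaks, 72.5% shared a region with UTP6, 18.6% with SAFB and 13.2% with SAFB2. Set against SAFB and SAFB2 alone, the lists of its own protocol, 77.2% of hnRNPU peaks had no counterpart (76.4 to 78.0%).

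Most sites had no other site within 50 kb, and the number that an even spread would leave alone was not computed. With gaps of up to 50 kb allowed, 1743 of the 2083 stood alone, 140 pairs and 13 triplets formed, and 5 runs held at least 4 sites. The longest run had 5 sites over 88.0 kb at chr6 from 52989903 to 53077942, with scores from 61.08 to 95.45 and 1 shared hnRNPU peak among them. The 4 runs of 4 sites were on chromosomes 1, 1, 3 and 4. These runs were singled out after their values were seen. The nearest hnRNPU peak of either class was at a median of 49314 bp (45181 to 52311 bp) from a site and 58606 bp (56623 to 60322 bp) from a shared peak, so a site was on median closer to another hnRNPU peak.

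The hnRNPU list as a whole has more of its peaks on chromosomes 6 and 12 than any other list, and the question was whether that excess lies in the hnRNPU-only sites. On chromosome 6 the share was larger among the sites, and in both classes it was above that of the other lists. Of the 2083 sites, 178 were on chromosome 6, a share of 8.55% (7.42 to 9.82%). Of the 8196 shared peaks, 495 were there, 6.04% (5.54 to 6.58%). The difference was 2.51 percentage points (95% Newcombe interval 1.26 to 3.88). It was 1.07 (0.07 to 2.12) with a reciprocal overlap of 50%, and 0.78 (-0.38 to 1.84) when sharing was set by SAFB and SAFB2 alone. Chromosome 6 held the most sites of any chromosome, ahead of chromosome 1 with 161, 7.73% (6.66 to 8.96%). The intervals of chromosomes 6 and 1 overlapped.

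On chromosome 12 the excess was present in both classes, and whether they differed depended on the setting. It held 148 sites, 7.11% (6.08 to 8.29%), and 497 shared peaks, 6.06% (5.57 to 6.60%). The difference was 1.04 percentage points (-0.12 to 2.33), an interval that includes 0. It was 1.63 (0.39 to 3.03) with peaks within 1 kb merged, 1.12 (0.04 to 2.30) with 500 bp windows and 1.21 (0.11 to 2.39) without the UTP6 list. With a reciprocal overlap of 50% it was 0.03 (-0.93 to 1.04), and 0.43 (-0.72 to 1.48) when sharing was set by SAFB and SAFB2 alone. It was 1.21 (-0.12 to 2.67) with equal numbers of peaks per list. The interval also included 0 with a score of at least 50, on chromosomes 1 to 19 and X, and without either knock-in list. The difference was 2.40 percentage points (1.02 to 3.92) among hnRNPU peaks with a score below the median of the list. It turned to -0.97 (-2.68 to 1.14) when each list was cut to the higher scoring 50% of its peaks. For the other 17 autosomes the difference between sites and shared peaks ran from -0.82 to 0.76 percentage points.

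**Figure D2:**
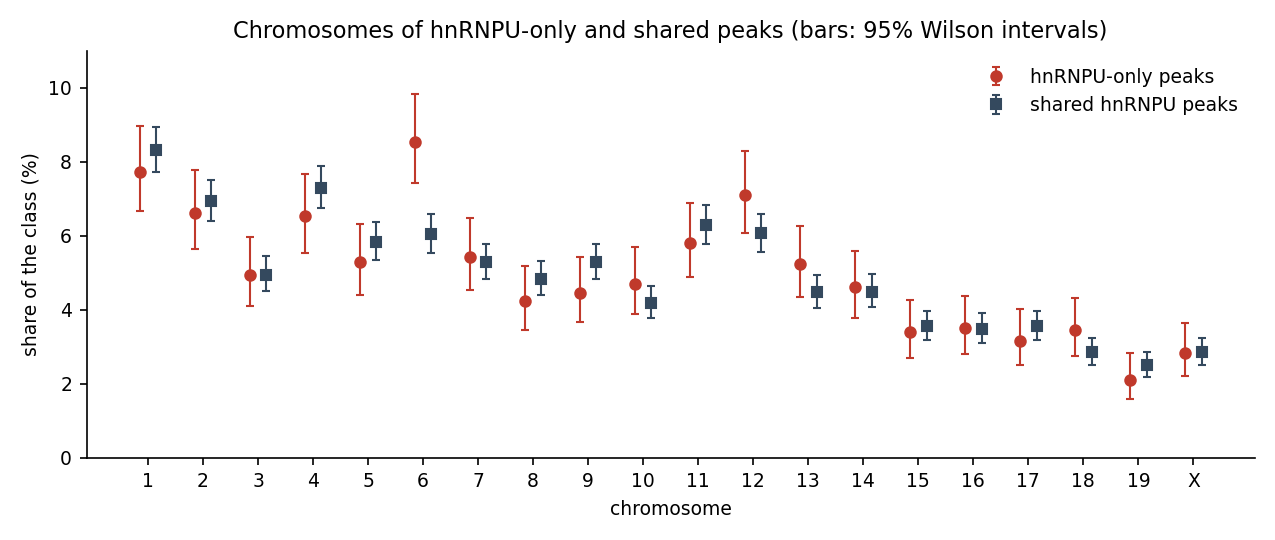
Share (%, y axis) of the 2083 hnRNPU-only peaks and of the 8196 shared hnRNPU peaks on each chromosome (x axis), with 95% Wilson intervals. The 2 classes separate on chromosome 6, at 8.55 and 6.04%, and their intervals overlap on chromosome 12, at 7.11 and 6.06%.

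Compared with other lists, the chromosome 6 share of the sites was above that of every other class of peaks in 1 list alone. Those shares were 5.45% for SAFB (4.77 to 6.23%), 5.16% for CIRH1A, 5.14% for UTP6 (4.77 to 5.52%), 4.51% for SAFB2 (3.48 to 5.82%), 4.04% for overexpressed PSPC1, 3.24% for UTP3, and 2.17 and 2.34% for the knock-in lists. The interval of CIRH1A, which rests on 11 of 213 peaks, reached 9.01% and overlapped that of the sites. The intervals of the other 7 lists ended below 7.42%. The knock-in and overexpressed PSPC1 classes leave out peaks shared between lists of that protein, here and on chromosome 12. The shared hnRNPU peaks, at 6.04%, were also above the shared peaks of the other lists, whose chromosome 6 shares ran from 3.63 to 5.50%. Here the interval of hnRNPU overlapped those of SAFB2, 4.93 to 6.14%, and SAFB, 4.78 to 5.83%.

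On chromosome 12, the sites at 7.11% were hardly above the peaks of UTP3 alone at 6.98% (4.87 to 9.91%), which rest on 28 of 401 peaks. CIRH1A alone gave 5.63% (3.25 to 9.59%) from 12 peaks. The remaining classes gave 4.21% for SAFB, 3.91% for UTP6, 3.79% for overexpressed PSPC1, 3.77% for SAFB2, and 2.62 and 2.65% for the knock-in lists. Among shared peaks, hnRNPU with 6.06% was above all 8 other lists, which ran from 3.46 to 4.46% and whose intervals ended at 5.04% or lower. The chromosome 12 excess stood apart from other lists more clearly in the shared peaks than in the sites. The knock-in lists had 22.4 and 19% of their peaks on chromosome 1, which lowers their shares elsewhere.

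**Figure D3:**
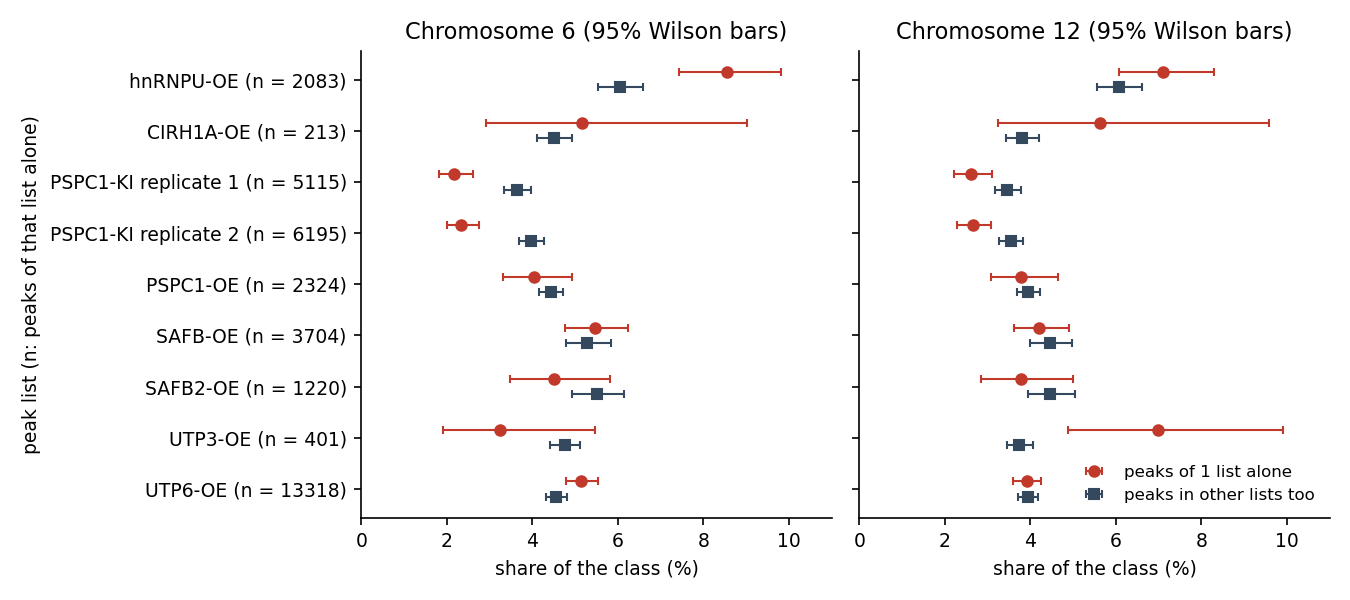
Share (%, x axes) of peaks on chromosome 6 (left) and chromosome 12 (right) for each of the 9 lists (y axis), for peaks of that list alone and for peaks also found in other lists, with 95% Wilson intervals. Both hnRNPU classes lie to the right on both chromosomes, with 8.55 and 6.04% on chromosome 6; UTP3 alone reaches 6.98% on chromosome 12 from 28 peaks.

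The excess can be counted in peaks. At the median share of the other 8 lists, 4.61%, the hnRNPU list would have 474 peaks on chromosome 6, and it had 673. Of the 199 peaks above that level, 81.9 (41.2%) belong to the sites, which make up 20.3% of the list. On chromosome 12 the median share of 3.88% would give 399 peaks, and the list had 645. Of the 246 peaks above it, 67.1 (27.3%) belong to the sites and 72.7% to shared peaks. Against the highest share of any other list in place of the median, the sites held 53.9% of the excess on chromosome 6 and 29.1% on chromosome 12. The level is set by the other lists and not by the length of the chromosome. A low share in those lists therefore enlarges the count. Shared peaks must also lie where those lists have peaks, and the sites must not. A larger part of the excess among the sites is therefore in part built into these classes.

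Per length of chromosome, chromosomes 12 and 6 had the most sites, with 1.22 and 1.19 per Mb. Chromosome 11 followed with 0.993, and the median of the 17 autosomes other than 6 and 12 was 0.751. Shared hnRNPU peaks numbered 4.10 per Mb on chromosome 12, the second highest value after chromosome 11 with 4.23, and 3.31 on chromosome 6, the seventh. The regions of the other 8 lists were sparse on both, with 20.1 per Mb on chromosome 12 and 18.9 on chromosome 6, ranks 16 and 18 among 20 chromosomes. Where other lists are sparse, fewer hnRNPU peaks can find a partner, and the part of this in the result was not tested. Chromosome 3 had a like density of other regions, 18.3 per Mb, and 0.646 sites per Mb. Of its hnRNPU peaks, 20.2% (17.0 to 23.9%) were sites, against 26.4% (23.3 to 29.9%) on chromosome 6 and 22.9% (19.9 to 26.3%) on chromosome 12. Chromosome 18, with 20.2 other regions per Mb, had 23.5% (19.1 to 28.6%) and 0.793 sites per Mb, and chromosome 16, with 19.9, had 20.3% (16.5 to 24.8%) and 0.743. The lowest value of an autosome was 17.7%.

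**Figure D4:**
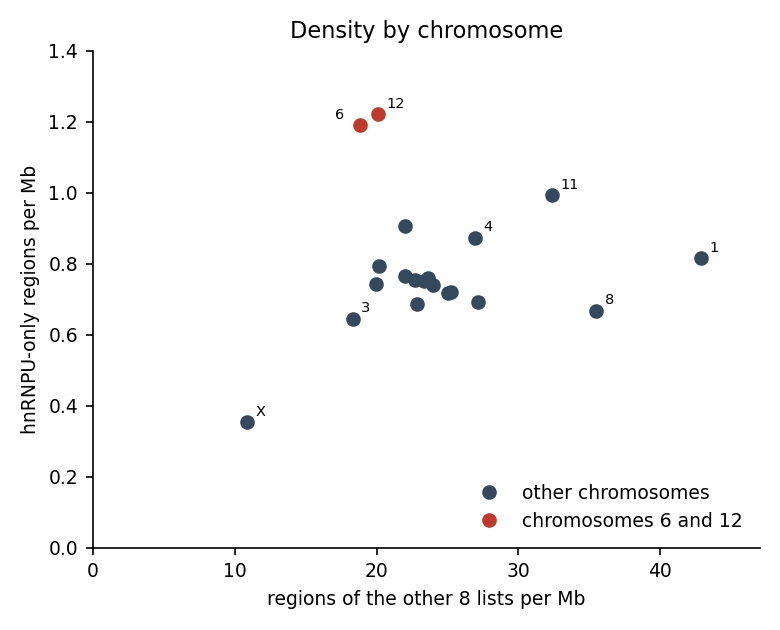
hnRNPU-only regions per Mb (y axis) against merged regions of the other 8 lists per Mb (x axis), 1 point for each of chromosomes 1 to 19 and X. Chromosomes 12 and 6 lie highest, at 1.22 and 1.19 sites per Mb, with 20.1 and 18.9 regions of other lists per Mb; the length of a chromosome is the largest peak end over all lists.

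At like score, the sites of chromosome 6 stood apart in 1 score quartile. In the second score quartile, 56.75 to 69.31, 39.0% of the hnRNPU peaks on chromosome 6 were sites (32.0 to 46.4%), against 23.4% (21.7 to 25.2%) on the autosomes other than 6 and 12. In the lowest quartile the shares were 46.2% (38.8 to 53.7%) and 38.4% (36.3 to 40.4%), and their intervals overlapped. They overlapped in the third quartile, at 14.8 and 11.8%, and in the highest, at 6.32 and 4.38%. On chromosome 12 the lowest quartile stood apart, with 54.7% sites (46.4 to 62.7%), and the other 3 quartiles gave 29.1, 13.2 and 3.92%. Median scores of the sites themselves were alike, 58.1 on chromosome 6, 56.5 on chromosome 12 and 57.0 on the other autosomes.

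The share of chromosome 6 was lower among hnRNPU peaks found in more lists. It was 8.55% with 0 other lists, 7.03% with 1, 8.31% with 2, 6.19% with 3, 5.64% with 4, 5.37% with 5, 6.01% with 6 and 3.84% with 7. With all 8 it was 1.60% (0.44 to 5.65%), from 2 of 125 peaks. Chromosome 12 went from 7.11% with 0 other lists to 7.97% with 3, 4.96% with 6 and 2.40% (0.82 to 6.82%) with 8. The intervals of neighbouring classes overlapped. A peak found in more lists must lie where those lists have peaks. The other 8 lists had lower shares, 3.22 to 5.34% on chromosome 6 and 3.23 to 4.37% on chromosome 12. A fall with more lists is therefore in part built into these classes.

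**Figure D5:**
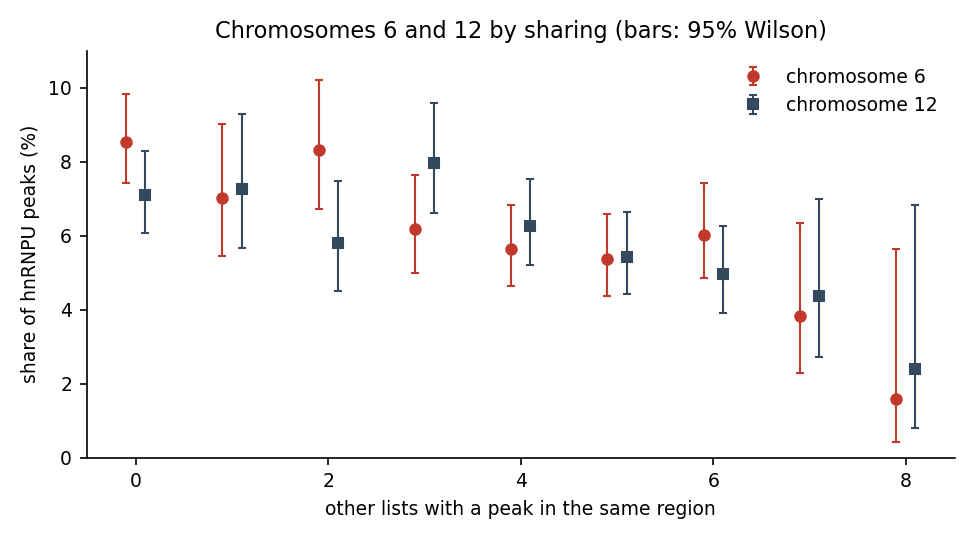
Share (%, y axis) of hnRNPU peaks on chromosomes 6 and 12 by the number of other lists with a peak in the same region (x axis), with 95% Wilson intervals; 0 stands for the hnRNPU-only sites. The chromosome 6 share goes from 8.55% at 0 to 1.60% at 8 other lists.

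The sites were also counted along both chromosomes. In bins of 10 Mb, chromosome 6 had 7 to 21 sites with a median of 10.5, and 10 of its 14 complete bins were above the median of 7 sites in the 213 bins of the other autosomes. Of these other bins, 45.1% were above it. Shared hnRNPU peaks had a median of 25.5 per bin on chromosome 6, below the 29 of the other autosomes, and of 39.5 on chromosome 12. Chromosome 12 had 2 to 23 sites per bin with a median of 12, and 9 of 12 bins were above 7. Without the bin of chromosome 6 with the most sites, which starts at 140 Mb and is incomplete, the difference between sites and shared peaks was 2.04 percentage points (0.85 to 3.35). Without the fullest bin of chromosome 12, which starts at 20 Mb and held 23 sites, it was 0.49 (-0.60 to 1.70).

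hnRNPU peaks were wider on these chromosomes too, most clearly those that were shared. Shared peaks had a median width of 1121 bp on chromosome 12 (1040 to 1220 bp), 991 bp on chromosome 6 (945 to 1079 bp) and 863.5 bp on the other autosomes (850 to 875 bp). Sites had 627 bp on chromosome 12 (577 to 683 bp) and 567.5 bp on chromosome 6 (536 to 598 bp). On the other autosomes together they had 555.5 bp (548 to 566 bp), and only the interval of chromosome 12 lay apart from this. Single autosomes in that pool reached like widths, with 640 bp for sites on chromosome 17 and 611 bp on chromosome 11. For shared peaks, chromosome 1 reached 960 bp, within the interval of chromosome 6. Of the 62 sites at least 2000 bp wide, 10 were on chromosome 12 (16.1%, 9.00 to 27.2%) and 8 on chromosome 6 (12.9%, 6.69 to 23.4%). In the UTP6 list, the median width of all peaks was 952 bp on chromosome 12, 965 bp on chromosome 6 and 1011 bp on the other autosomes. In the SAFB list they were 1702, 1616 and 1727 bp. Over all peaks of a list, none of the 8 other lists had a larger median width on chromosome 6 than on the other autosomes. On chromosome 12 the knock-in lists did, with 1539 against 1504 bp and 1442 against 1425 bp, and their intervals overlapped. Among peaks of 1 list alone, CIRH1A had 665 bp on chromosome 6 against 621 bp, and overexpressed PSPC1 220 against 201 bp. Their intervals overlapped too, and the remaining lists had smaller medians on chromosome 6 in this class.

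Chromosome X held 6.83% of the SAFB peaks and 6.48% of the SAFB2 peaks. It held 59 sites, 2.83% (2.20 to 3.64%), and 234 shared hnRNPU peaks, 2.86% (2.52 to 3.24%). The share of hnRNPU peaks that were sites was 20.1% there (15.9 to 25.1%), near that of the whole list. Outside chromosomes 1 to 19 and X lay 6 sites.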

How the data were processed

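Peak lists of 9 ChIP-seq libraries were used, 1 deposited list per library, so replicates were not pooled. Per the submitters' processing notes the build is mm9, and CASAVA, Bowtie2 and TopHat are named with no role. The peak names carry MACS. Its version, threshold and control library are not given in the sources used here. The score of each peak is the authors' deposited value, of unstated unit, and served only to order and filter the peaks of the same list. Positions are counted from 1.

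Peaks sharing at least 1 bp were merged across lists. Shares carry Wilson 95% intervals, differences Newcombe's, and medians binomial order-statistic intervals. The members, comparisons and alternatives were chosen with earlier results of these data known. Regions were named by rule: the 10 highest scores, the 5 widest, the 3 highest scores on each of chromosomes 6 and 12, and 3 on either side of the overlap limit. The procedure was tested on simulated data, where it recovered all 872 planted list-only peaks of 3000. The simulated sites were well separated, with no case at the 1 bp limit. The test therefore checks the code and not the classes of the real lists. Intervals came from scipy 1.17.1, tables from pandas 2.3.3 and numpy 2.4.6 under Python 3.11.15, and plots from matplotlib 3.10.9.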

Additional observations from a re-analysis of the deposited data

How the results depend on the processing

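No paired analysis was possible because the hnRNPU library has no replicate. Of 58 alternative values, 34 stayed within the 95% interval of the reported value, and the cause of the other changes was not tested unless given. The share of hnRNPU peaks in no other list was 34.8% with a reciprocal overlap of 50%, 25.0% with 500 bp windows, 17.9% with peaks within 1 kb merged, 14.1% with the highest scoring 50% of each list, 27.3% with 6670 peaks per list, 21.4% with a score of at least 50, 24.5% without the UTP6 list and 77.2% against SAFB and SAFB2 only. Without either knock-in library it was 21.1 to 21.2%. Fewer lists, or fewer peaks in the other lists alone, leave fewer partners by construction. With the highest scoring 50% and with equal lists, the hnRNPU list was cut as well. The direction was not fixed there, and the share fell with the first and rose with the second. The median score of the sites was 58.6 with reciprocal overlap, 57.9 with windows and 57.8 without UTP6. It was 81.3 with the highest scoring 50%, 74.4 with equal lists and 66.7 against SAFB and SAFB2 only, where weak peaks are removed or more shared peaks counted by construction. The median width was 591, 685, 727, 574 and 782 bp with reciprocal overlap, the highest scoring 50%, equal lists, no UTP6 list, and SAFB and SAFB2 only. With 500 bp windows the median deposited width of the sites was not computed, and that of shared peaks was 866 bp. The chromosome 6 difference was positive under all 13 alternatives, lowest at 1.07 percentage points with reciprocal overlap and 0.78 (-0.38 to 1.84) against SAFB and SAFB2 only. The chromosome 12 difference was 1.63 (0.39 to 3.03) with peaks within 1 kb merged, 1.12 (0.04 to 2.30) with windows and 1.21 (0.11 to 2.39) without UTP6. It was 0.03 (-0.93 to 1.04) with reciprocal overlap, 0.43 (-0.72 to 1.48) against SAFB and SAFB2 only and 1.21 (-0.12 to 2.67) with equal lists. It was -0.97 with the highest scoring 50% of each list and 2.40 below the median score. The settings by score below the median and without the fullest bin were chosen after seeing the data. Unknown read depth limits every statement that a peak is absent.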
